A study of Mus musculus with 4 samples.

Results

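The genes described here are 38 genes of DNA replication and S phase, taken by symbol from the 32285 genes of the deposited feature lists. All 38 symbols were found, and all 38 had at least 20 counts in either library of every comparison of cell classes below. A log2 ratio below is of CPM, a gene's UMIs scaled to a common library total, with 1 CPM added, its interval is taken without that addition, and at least 1.5-fold is the limit for calling a gene higher or lower. Values are given by cell class in each of 4 single-cell libraries.

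The cells were Kit+ CD45.2+ mouse bone marrow cells taken 10 weeks after transplantation, so that in all groups donor cells had been carried through a host. RNA and surface antibodies were counted together in droplets with 10x 3' chemistry. There was 1 library for each of 4 groups: a control, deletion of Mll3, deletion of Mll4, and deletion of both (Mll3/4). Kmt2c encodes Mll3 and Kmt2d encodes Mll4, each a methyltransferase acting on histones. The labels used here give no strain, allele, Cre driver, host or number of animals. With 1 library a group no test between groups was possible, and every interval below covers counting error only. Intervals of single values are at 95%. An interval given after a median is the median of the members' own limits, and not a 95% interval of that median.

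DNA replication starts at origins that are licensed in G1 by loading of the Mcm2 to Mcm7 ring with the help of Cdc6 and Cdt1. In S phase Mcm10, Cdc45 and the GINS complex turn the ring into a moving helicase, and polymerases, the Pcna clamp and its loader copy both strands. Transcription of many of these genes is known to rise at the G1 to S boundary under E2F factors, and dividing marrow progenitors express them more than resting stem cells.

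Promoter sequences are shown for 5 members on which the results turn. Mcm5 and Mcm6 were higher in every class of the Mll4-labelled library. Uhrf1 and Rrm2 were low in the B-lineage cells of the Mll3/4-labelled library, and Chaf1b was the highest member there. These groups overlap. Uhrf1 and Rrm2 were also higher in every class of the Mll4-labelled library, and Mcm5 was also lower in those B-lineage cells. The sequences are RefSeq promoters on GRCm38.p6, from 250 bases before to 50 bases after a start. They are written 5' to 3' on the strand of the gene. Capitals mark letters that match TTTCCCGC, TTTGGCGC, TTTCGCGC or TTTGCCGC on either strand, forms of the E2F site, with overlapping matches counted separately.
Mcm5, chr8:75109259-75109558, plus strand: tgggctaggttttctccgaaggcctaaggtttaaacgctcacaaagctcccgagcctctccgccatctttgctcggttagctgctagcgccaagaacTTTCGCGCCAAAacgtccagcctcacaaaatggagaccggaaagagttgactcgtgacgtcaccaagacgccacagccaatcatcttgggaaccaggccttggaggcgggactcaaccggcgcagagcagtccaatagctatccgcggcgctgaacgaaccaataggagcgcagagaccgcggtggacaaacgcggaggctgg
Mcm6, chr1:128359656-128359955, minus strand: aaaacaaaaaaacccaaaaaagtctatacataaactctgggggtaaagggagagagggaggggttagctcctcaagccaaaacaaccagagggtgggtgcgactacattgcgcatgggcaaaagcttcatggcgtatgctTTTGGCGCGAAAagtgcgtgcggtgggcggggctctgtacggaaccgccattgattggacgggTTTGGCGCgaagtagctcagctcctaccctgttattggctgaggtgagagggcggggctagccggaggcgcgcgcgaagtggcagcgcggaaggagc
Uhrf1, chr17:56304063-56304362, plus strand: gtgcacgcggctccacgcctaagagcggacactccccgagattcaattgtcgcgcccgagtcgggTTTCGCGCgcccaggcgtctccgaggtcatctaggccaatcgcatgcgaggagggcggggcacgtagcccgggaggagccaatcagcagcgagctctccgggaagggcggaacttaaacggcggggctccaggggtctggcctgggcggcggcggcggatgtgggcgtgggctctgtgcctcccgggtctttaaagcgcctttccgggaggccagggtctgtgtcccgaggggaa
Rrm2, chr12:24708004-24708303, plus strand: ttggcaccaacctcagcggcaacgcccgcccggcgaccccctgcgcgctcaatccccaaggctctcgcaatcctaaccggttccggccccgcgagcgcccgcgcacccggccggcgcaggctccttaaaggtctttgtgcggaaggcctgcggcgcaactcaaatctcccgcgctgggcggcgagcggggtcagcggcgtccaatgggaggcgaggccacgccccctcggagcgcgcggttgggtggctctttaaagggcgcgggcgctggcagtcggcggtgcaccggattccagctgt
Chaf1b, chr16:93883651-93883950, plus strand: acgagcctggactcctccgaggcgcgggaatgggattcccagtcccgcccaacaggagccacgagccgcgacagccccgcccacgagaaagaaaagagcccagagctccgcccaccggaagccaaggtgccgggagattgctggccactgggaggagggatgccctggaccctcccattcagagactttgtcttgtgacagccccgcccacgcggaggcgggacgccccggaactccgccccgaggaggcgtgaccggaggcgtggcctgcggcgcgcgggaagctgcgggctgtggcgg
The Mcm6 window held 3 matches, the Mcm5 window 2 and the Uhrf1 window 1, and those of Rrm2 and Chaf1b held none of these letters. Uhrf1 has 2 listed starts, and the one with a match is shown. Of the 38 members, 32 had a promoter in the table, with 37 windows in all, and Mcm4, Pole, Tipin, Gins2, Rfc2 and Gins1 had none. A match was found in 13 of the 37 windows, or 35.1%, and in 744 of all 32851 windows of the same length, or 2.26%. The letters CCAAT, the NF-Y site, were found on either strand in 20 of the 37 windows, or 54.1%, and in 37.4% of all windows.

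In GENCODE M21 on GRCm38 the members lie on 15 chromosomes, with 8 of the 38 on chromosome 5. Mcm6 spans chr1:128331590-128359664 and Rrm2 chr12:24708241-24714146. Uhrf1 spans chr17:56303321-56323486 and Chaf1b chr16:93883901-93906115.

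The 4 libraries held 10001, 9491, 6622 and 8284 barcodes in the order control, Mll3, Mll4 and Mll3/4, of which 7146, 5860, 5350 and 6917 cells were kept. The median kept cell had 15754, 16963.5, 5142 and 9965 UMIs in that order, so that the Mll4-labelled library was the shallowest. Pairs of libraries shared 3 to 15 kept barcodes. Kmt2c was at 48.5 CPM in control, 27.4 in the Mll3-labelled, 60.2 in the Mll4-labelled and 34.9 in the Mll3/4-labelled library. Kmt2d was at 26.1, 21.9, 25.5 and 25.2 CPM in the same order, so that it was not lower by more than 1.5-fold in the libraries labelled Mll4 and Mll3/4 deleted. A 3' tag does not check a deletion outside the region it reads, and the labels below name libraries. Xist was at 1009 CPM in control, 958 in the Mll3-labelled and 1850 in the Mll3/4-labelled library but at 0.478 CPM in the Mll4-labelled library, which therefore stood apart from the others.

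Cells of the 4 libraries were clustered together without the members or other cell cycle genes, and each class name below stands for clusters like that cell type by fixed markers. In control the 38 members together made up the largest share of UMIs in the erythroid progenitor class, 0.541%, and the B-cell progenitor class, 0.505%. The share was 0.427% in the monocyte/macrophage progenitor, 0.416% in the megakaryocyte, 0.392% in the HSC/MPP (stem cell and multipotent progenitor), 0.381% in the granulocyte progenitor and 0.337% in the basophil/mast class. It was lowest in neutrophils, 0.257%, and in the 50 T/NK/innate lymphoid cells, 0.223%. Erythroid progenitors were the class of the highest level for 19 members and B-cell progenitors for 11, while 19 members were lowest in T/NK/innate lymphoid cells and 18 in neutrophils.

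Members with different roles were not distributed alike over the control classes. Dut, which hydrolyses dUTP, was at 962 CPM in erythroid progenitors, 629 in B-cell progenitors, 447 in HSC/MPP and 204 in neutrophils. Pcna, the sliding clamp, was instead highest in B-cell progenitors, at 540 CPM against 366 in erythroid progenitors, 313 in HSC/MPP and 206 in neutrophils. Rrm2, the regulated subunit of ribonucleotide reductase, was at 278 CPM in B-cell progenitors and 271 in neutrophils but at 45.9 in HSC/MPP and 40 in megakaryocytes. The neutrophil class was thus high for Rrm2 while its Mcm6, at 71.5 CPM, and Mcm3, at 69.4 CPM, were the lowest of all classes. Ung, the uracil-DNA glycosylase, had the widest range, from 2.27 CPM in neutrophils to 67 in monocyte/macrophage progenitors. Cdc45 was the only member with its highest level in neutrophils, at 52.4 CPM. Cells of the largest control neutrophil cluster, led by Ltf, carried 1.94% of UMIs from G2/M genes and 0.217% from the members, against 0.767% and 0.45% in the HSC/MPP cluster led by Cd34.

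**Figure D1:**
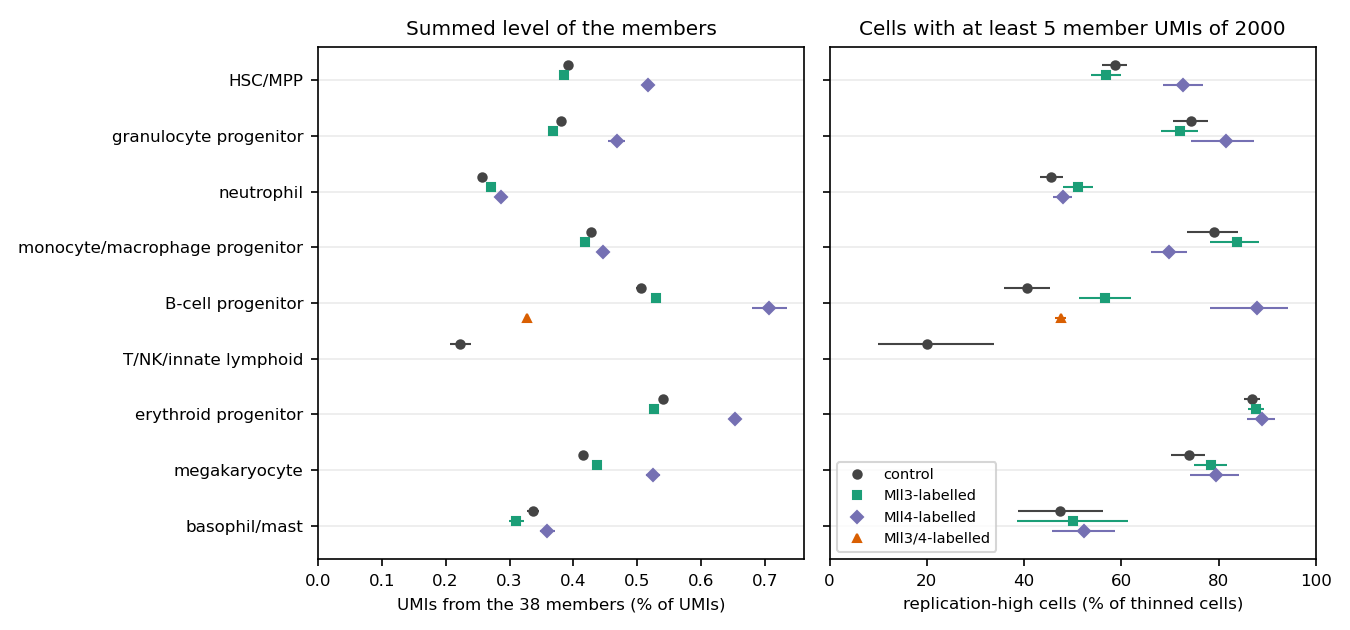
Left, UMIs from the 38 members as a percentage of all UMIs, summed over the cells of a class (rows) in each library (symbols), with exact Poisson intervals. Right, cells with at least 5 member UMIs after thinning to 2000 UMIs, with Clopper-Pearson intervals, where the B-cell progenitor row spans 40.6% in control to 87.8% in the Mll4-labelled library.

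To compare cells of unequal depth, each cell was thinned to 2000 UMIs and called replication-high with at least 5 UMIs from the members, which is a range and not a cell type. In control 86.9% of erythroid progenitors, 79.1% of monocyte/macrophage progenitors, 74.4% of granulocyte progenitors and 73.8% of megakaryocytes passed. The share was 58.6% in HSC/MPP, 45.6% in neutrophils and 40.6% in B-cell progenitors, and 20% (10% to 33.7%) in T/NK/innate lymphoid cells, the lowest class. Free RNA was not removed from the counts, and its part in these shares was not tested. The T/NK/innate lymphoid share, at a median of 4898 UMIs a cell, does not measure it, since whether those cells divide was not tested. B-cell progenitors, at a median of 4389 UMIs in control, had the second highest summed level but a low share of replication-high cells. Their 2 control clusters differed: 87.5% of the cells of the cluster led by Cd79a were replication-high and 9.09% (5.91% to 13.2%) of the cluster led by Vpreb1. The latter interval overlapped that of T/NK/innate lymphoid cells.

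B-cell progenitors were the class in which the Mll3/4-labelled library could be compared, and there 34 of 38 members were lower than in control. This class held 471 control cells, 369 Mll3-labelled, 143 Mll4-labelled and 6831 Mll3/4-labelled cells. The cells of the Mll3/4-labelled library lay almost wholly in 4 clusters of their own, led by Gria2, Rnase12 or Crip1, and those of the other libraries in the 2 clusters led by Vpreb1 and Cd79a. All 10 B-lineage markers were detected in the class in all 4 libraries, with Cd79a, of the B-cell receptor, at 1802 CPM in control and 2998 in Mll3/4-labelled cells. Among them Dntt, an enzyme of early B-cell receptor rearrangement, was at 1240, 1263, 1541 and 660 CPM in control, Mll3-, Mll4- and Mll3/4-labelled cells, and Il7r, the interleukin 7 receptor, at 265, 248, 320 and 703 CPM. The part of this difference in markers in the values below was not tested. Values by role below are summed over the class, so that the mix and depth of its cells enter them. The summed member level was 0.505% of UMIs in control, 0.529% in the Mll3-labelled, 0.707% in the Mll4-labelled and 0.328% in the Mll3/4-labelled library. The median log2 ratio of the members to control was -0.63 in the Mll3/4-labelled library, and the median over their own limits was -0.80 to -0.47. With each cell weighted equally, as the mean of CPM per cell, it was -0.24. Over all 13459 genes measured it was 0.02. At least 1.5-fold lower were 21 of 38 members, where 14.8% of all genes were, and 1 was at least 1.5-fold higher, where 18.3% were. With TMM scaling (a trimmed mean of gene ratios in place of total UMIs), 14 were at least 1.5-fold lower and 1 higher, and 31 of 38 were lower at all. The shares of all genes given here are without TMM scaling. Against the Mll3-labelled library the median was -0.66, with 23 members lower and 1 higher, where 12.4% and 22.9% of all genes were.

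Among the origin licensing genes the 6 subunits of the Mcm ring did not move together. Mcm6 was at 178 CPM in control, 169 in the Mll3-labelled, 502 in the Mll4-labelled and 167 in the Mll3/4-labelled library. Mcm3 was at 136, 172, 272 and 137 CPM and Mcm2 at 60.7, 63.5, 143 and 59.7 CPM in the same order. The intervals of these 3 in the Mll3/4-labelled library all held 0, with log2 ratios to control of -0.09 (-0.21 to 0.04), 0.01 (-0.13 to 0.15) and -0.02 (-0.23 to 0.19), and with TMM scaling all 3 were above 0. Mcm5 was lower there, at 66 CPM against 107 in control and 140 and 300 in the other libraries, a log2 ratio of -0.70 (-0.86 to -0.54). Mcm7 and Mcm4 lay between, at -0.53 (-0.66 to -0.41) and -0.33 (-0.50 to -0.16), though Mcm4 was at 0.12 as the mean of CPM per cell. Cdc6, which loads the ring, was at 24.5, 33, 30.9 and 12.6 CPM, with -0.91 (-1.29 to -0.61) in the Mll3/4-labelled library, and its partner Cdt1 was at -0.44 (-0.75 to -0.14).

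Summed over the class, all 4 helicase activators were past 1.5-fold lower there. Gins2, a subunit of the GINS complex, was at 87.7 CPM in control, 89.6 in the Mll3-labelled, 67.4 in the Mll4-labelled and 29.5 in the Mll3/4-labelled library, the lowest log2 ratio of the list at -1.54 (-1.75 to -1.39). Gins1, of the same complex, was at 26.4, 33.3, 33.7 and 8.65 CPM, or -1.505 (-1.94 to -1.26). Cdc45 and Mcm10, which complete and activate the helicase, were at -0.88 (-1.16 to -0.65) and -0.89 (-1.23 to -0.61). The class is split by its G2/M genes below. In its G2/M-high cells Cdc45 and Mcm10 were at -0.48 (-0.78 to -0.19) and -0.27 (-0.63 to 0.08), short of 1.5-fold. In its G2/M-low cells they were at -0.61 (-1.18 to -0.06) and -0.91 (-1.64 to -0.27). Gins2 and Gins1 were past 1.5-fold lower in both parts.

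Summed over the class, the polymerase genes were lower for all 5 members, 3 of them past 1.5-fold. Pold1, the catalytic subunit of the lagging strand polymerase, was at 73.9, 71.5, 70.2 and 29 CPM in control, Mll3-, Mll4- and Mll3/4-labelled cells, or -1.32 (-1.54 to -1.15) for the last against control. The other 4, Pola1, Pola2, Prim1 and Pole, ranged from -0.87 to -0.47. In the G2/M-low part of the class, split below, Pola1 was higher than control, at 0.45 (0.08 to 0.86), and Pole was near it. All 7 clamp, clamp loader and fork genes were lower, 5 past 1.5-fold. Pcna was at 540, 528, 542 and 292 CPM, so that the first 3 libraries lay close together and the Mll3/4-labelled library was at -0.88 (-0.96 to -0.81) against control. Rfc2 and Rfc4, of the clamp loader, were at -1.04 and -1.03, and Rfc3, Rfc5, the single-strand binding gene Rpa2 and the fork gene Tipin lay between -0.70 and -0.35. Fen1 and Lig1, which trim and seal Okazaki fragments, were at -0.62 and -0.68.

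Summed over the class, nucleotide supply was lower for 5 of 5 members. Rrm2 was at 278 CPM in control, 290 in the Mll3-labelled, 477 in the Mll4-labelled and 122 in the Mll3/4-labelled library, or -1.18 (-1.29 to -1.09). Tyms, thymidylate synthase, was at 287, 292, 261 and 134 CPM, or -1.09 (-1.20 to -1.0003). Both were lowest in the Mll3/4-labelled library of all 4. Rrm1, the partner of Rrm2, was at -0.75, Tk1 at -0.66 and Dut at -0.45. In the split by G2/M genes below, Tk1 was higher than control in G2/M-high cells, at 0.24 (0.07 to 0.41). Dut was higher in G2/M-low cells, at 0.22 (0.08 to 0.35). Rrm1, Rrm2 and Tyms were lower in both parts.

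The chromatin genes held both a member near the bottom of the list and the one at its top. Uhrf1, which brings maintenance methylation to new DNA, was at 162 CPM in control, 193 in the Mll3-labelled, 278 in the Mll4-labelled and 55.2 in the Mll3/4-labelled library, or -1.54 (-1.69 to -1.42). Chaf1b, a subunit of the histone chaperone CAF-1, was at 54.4, 59.4, 98.3 and 89.9 CPM, or 0.72 (0.51 to 0.95), the only member at least 1.5-fold higher. Its partner Chaf1a was at -0.44 (-0.68 to -0.22), so that the 2 subunits differed in direction. Slbp, which binds histone mRNA, was at -0.35. Hells, a chromatin remodeler, was at 88.6 and 87.7 CPM in control and Mll3/4-labelled cells, and Ung and Msh6, which repair the new strand, were at 0.01 and 0.12.

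**Figure D2:**
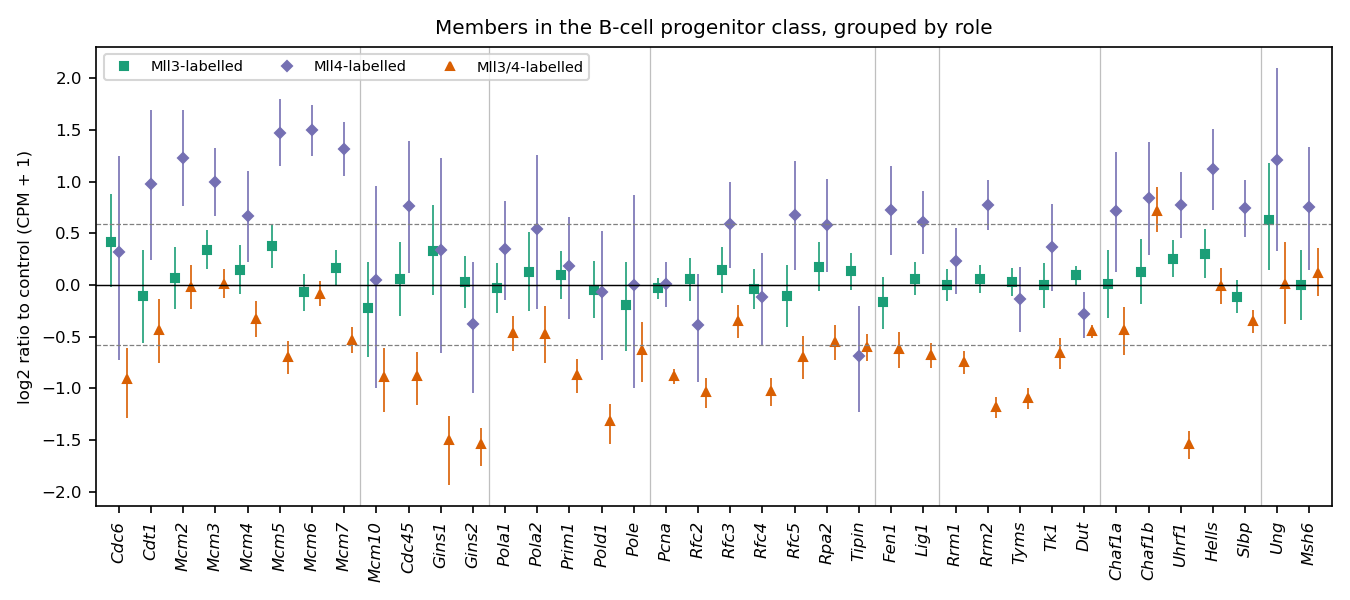
The log2 ratio to control of each member in the B-cell progenitor class, grouped by role, for 3 libraries (symbols), with exact conditional intervals and dashed lines at 1.5-fold. In the Mll3/4-labelled library Gins2 and Uhrf1 lie lowest, at -1.54, and Chaf1b alone lies above the upper line, at 0.72.

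Of 64 other genes of DNA replication, 25 were at least 1.5-fold lower in the Mll3/4-labelled class and 3 were higher, with a median of -0.40. Among the lowest were Ccna2, cyclin A2, from 202 CPM in control to 81.2, and the fork protein gene Timeless, from 34.6 to 14.1. The highest were the E2F activator gene E2f2, from 105 to 183 CPM, and the cyclin E genes Ccne1, from 27.3 to 44.8, and Ccne2, from 33.6 to 53.5. The 54 G2/M genes had a median of -0.64, with 30 at least 1.5-fold lower and 0 higher. The shares of all genes to set beside the counts of both lists are those given above for this class against control.

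The number of replication-high B-cell progenitors and the level inside them did not differ in the same way. The share of replication-high cells was 40.6% (36% to 45.3%) in control, 56.7% in the Mll3-labelled, 87.8% in the Mll4-labelled and 47.5% (46.3% to 48.7%) for Mll3/4-labelled cells. The Mll4-labelled value rests on 74 cells, since 69 had fewer than 2000 UMIs, and was 64.3% unthinned. The log2 ratio of the Mll3/4-labelled share to control was 0.23 and turned to -0.04 with at least 8 UMIs and to -0.41 with at least 10 of 4000. Replication-high cells held a mean of 14.8 member UMIs in control against 10.4 for Mll3/4-labelled cells. When the replication-high cells were chosen by the other 37 members, the median log2 ratio of the members inside them was -0.56 (-0.98 to -0.14). No value over all genes was taken inside these cells. Uhrf1 was again lowest, at -1.58 (-1.93 to -1.25), and Mcm2, Mcm3, Mcm6 and Hells stayed near control, at 0.10 to 0.17. Chaf1b was at 0.53 (-0.01 to 1.14).

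**Figure D3:**
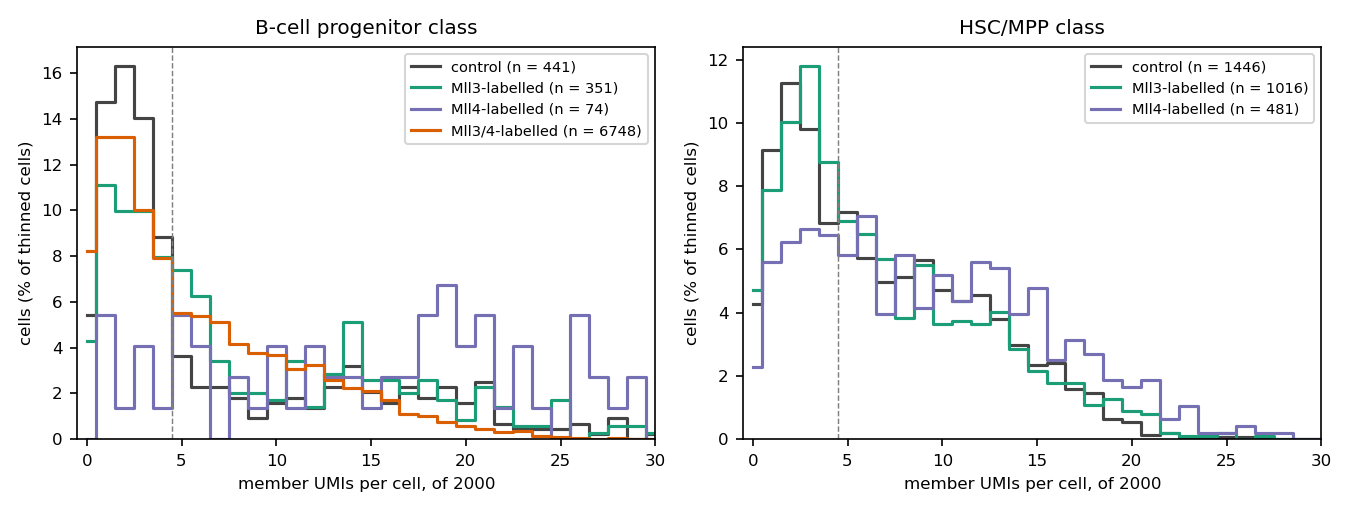
Member UMIs per cell after thinning to 2000 UMIs (horizontal axis) as a percentage of cells (vertical axis), with a dashed line at the limit for replication-high cells. In the B-cell progenitor class the 90th percentile was 19 member UMIs in control against 14 for Mll3/4-labelled cells, with medians of 3 and 4.

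The class was then split by its G2/M genes, which share no gene with the members, at 20 of the 2000 thinned UMIs. This split was chosen after the cluster values had been seen. The G2/M-high share of the class was 34.2% in control, 47% for Mll3-labelled cells, 79.7% of the 74 Mll4-labelled cells and 23.2% for Mll3/4-labelled cells. Among G2/M-low cells, 17.2% (13.1% to 22.1%) were replication-high in control, inside the T/NK/innate lymphoid interval of 10% to 33.7%. The share was 33.9% in the Mll3-labelled and 41.8% (40.5% to 43.2%) in the Mll3/4-labelled library. Among G2/M-high cells the order was the opposite, with 85.4% (78.8% to 90.6%) in control, 82.4% in the Mll3-labelled and 66.2% (63.8% to 68.6%) for Mll3/4-labelled cells. The mean member UMIs per cell went from 3.99 in control to 5.25 in G2/M-low cells and from 13.5 to 8.2 in G2/M-high cells. Of the 15 G2/M-low cells of the Mll4-labelled library 86.7% (59.5% to 98.3%) were replication-high, and of its 59 G2/M-high cells 88.1%.

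In G2/M-high cells the median log2 ratio of the members in the Mll3/4-labelled library to control was -0.63 (-0.83 to -0.46), with 22 of 38 at least 1.5-fold lower and 1 higher, where 10.8% and 23.1% of all genes were. In G2/M-low cells 13 were lower and 1 higher, where 20.5% and 21.1% of all genes were. With TMM scaling 9 members were lower and 5 higher, where 1956 and 3368 of 12938 genes were. Without TMM scaling the median of the members in G2/M-low cells was -0.18 (-0.61 to 0.14). That median was 0.49 with a limit of 10 G2/M UMIs, -0.61 with 30 and 0.29 as the mean of CPM per cell, so its direction was not stable. The Mll3-labelled library also differed from control in G2/M-low cells, with a median of 0.45 (0.05 to 0.89) and 11 members at least 1.5-fold higher and 0 lower, where 4.58% and 14.1% of all genes were. Against the Mll3-labelled library the medians of the Mll3/4-labelled library were -0.59 in G2/M-high cells, with 19 members lower and 1 higher (10.2% and 26% of all genes), and -0.60 in G2/M-low cells, with 22 lower and 0 higher (15.8% and 25.5%). In G2/M-high cells 0 members of the Mll3-labelled library were past 1.5-fold from control, where 3.69% of all genes were higher and 6.38% lower. In the 59 G2/M-high cells of the Mll4-labelled library 15 were higher and 2 lower, where 23.6% and 18.3% of all genes were. With TMM scaling 9 members were higher and 5 lower, where 842 and 2058 of 7024 genes were. In the Mll3/4-labelled library 12 of 38 members were higher than control in G2/M-low cells and lower in G2/M-high cells. Of all genes measured in both, 11.4% were. For 6 of the 12 members both intervals left out 0.

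From G2/M-low to G2/M-high cells the median difference of the members was smaller in the Mll3/4-labelled library than in control. The median log2 ratios of high over low were 0.45 and 0.99. The range over members was wider in the Mll3/4-labelled library, at -2.66 to 3.31 against -1.22 to 2.10. No value of high over low was taken over all genes. Tk1, thymidine kinase, was at 55.1 CPM in G2/M-low and 167 in G2/M-high cells of control, and at 19 and 198 CPM in the Mll3/4-labelled library, a log2 ratio of high over low of 1.59 and 3.31. Rrm2 was at 95.6 and 412 CPM in control and at 44.3 and 292 in the Mll3/4-labelled library, or 2.10 and 2.69. Mcm6 went the other way, from 142 to 206 CPM in control but from 199 to 98.6 in the Mll3/4-labelled library, or 0.53 and -1.005. Mcm2, Mcm3, Mcm4 and Cdt1 did likewise, at 0.27 to 0.64 in control and -0.84 to -0.66 in the Mll3/4-labelled library. Mll3-labelled cells had a median of 0.30, and in them Mcm4 was also lower in G2/M-high cells, at -0.52 (-0.87 to -0.19), with Mcm3 at -0.14 (-0.40 to 0.13). Ung was at 26.8 and 10.9 CPM in control and at 24.4 and 3.02 in the Mll3/4-labelled library. Chaf1b was higher in the Mll3/4-labelled library in both, at 81.1 against 39.8 CPM in G2/M-low and 110 against 66 in G2/M-high cells. The control groups had 290 and 151 cells with median UMIs of 3505 and 10537, and the Mll3/4-labelled groups 5182 and 1566 cells with 9128 and 14111. The part of depth in these values was not tested.

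**Figure D4:**
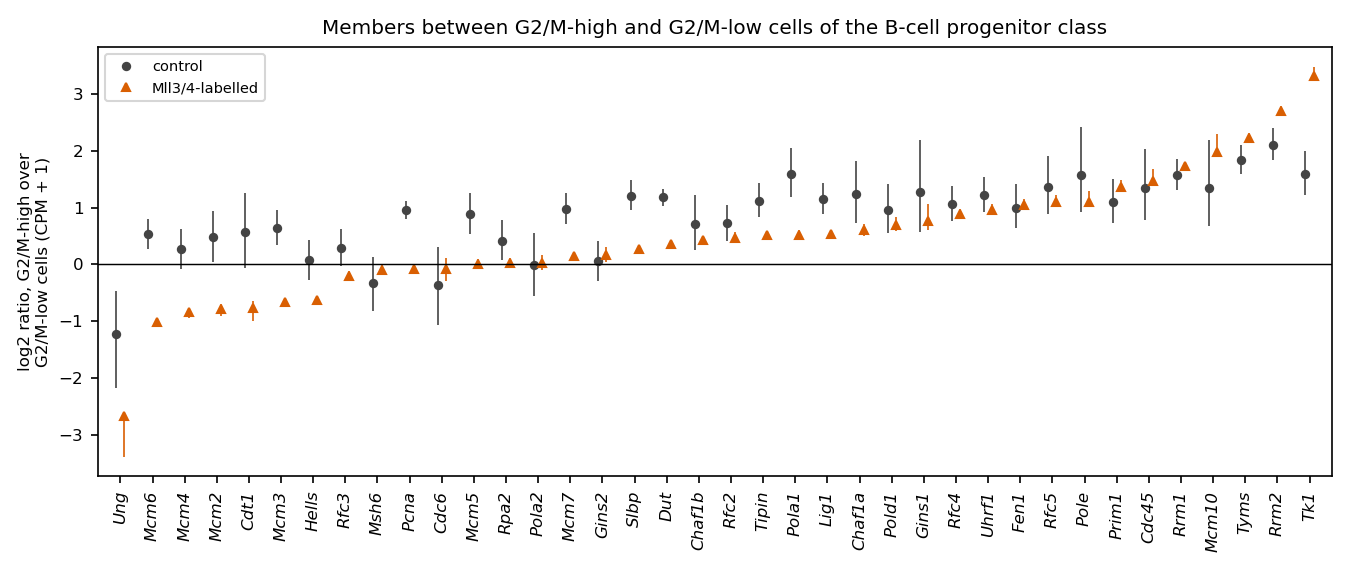
The log2 ratio of G2/M-high over G2/M-low B-cell progenitors for each member in control (circles) and the Mll3/4-labelled library (triangles), ordered by the latter, with exact conditional intervals taken without the added 1 CPM. The Mll3/4-labelled values run from -2.66 for Ung to 3.31 for Tk1 and the control values from -1.22 to 2.10.

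In the Mll4-labelled library most of the Mcm ring was higher than in control in every one of 8 classes, with Mcm4 left out. Mcm6 was at 210 CPM in control HSC/MPP cells, 190 in Mll3-labelled and 494 in Mll4-labelled cells, a log2 ratio of 1.23 (1.14 to 1.32) for the last. In erythroid progenitors it was at 229, 206 and 512 CPM, and in neutrophils at 71.5, 81.9 and 149. Mcm5 was at 119, 106 and 258 CPM in HSC/MPP, or 1.11 (0.9996 to 1.24), and Mcm7 at 179, 164 and 360, or 1.01 (0.91 to 1.11). Over the 8 classes the log2 ratios were 0.79 to 1.495 for Mcm6, 0.50 to 1.47 for Mcm5, 0.66 to 1.31 for Mcm7, 0.60 to 1.23 for Mcm2 and 0.33 to 0.999 for Mcm3. With TMM scaling all 5 were still above 0 in the 8 classes. Mcm4, the remaining subunit, was at 111, 103 and 111 CPM in HSC/MPP and between -0.18 and 0.67 over the classes, higher in 5 of 8 and with TMM scaling in 1.

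Other members of the Mll4-labelled library were higher or lower across classes. Rrm2 was at 45.9 CPM in control HSC/MPP, 52 in Mll3-labelled and 104 in Mll4-labelled cells, or 1.16 (0.98 to 1.36), and higher in all 8 classes, though with TMM scaling in 7. Hells and Uhrf1 were higher in all 8 under both scalings, from 0.24 to 1.12 and from 0.27 to 0.78. Dut was lower in all 8 under both, from -1.04 in basophil/mast cells to -0.28 in B-cell progenitors, and in HSC/MPP it was at 447, 437 and 322 CPM. Tyms, from -0.63 to -0.01, Tipin, from -0.69 to -0.03, and Rfc4, from -0.60 to -0.12, were also lower in all 8 under both. Pcna stayed between -0.36 and 0.04. In all, 14 of 38 members were higher in every class, or 36.8%, against 29.2% of the 6997 genes measured in all 8, and 4 were lower, or 10.5% against 14%.

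The count of members past 1.5-fold in this library moved with the scaling. Shares of all genes in what follows are without TMM scaling and do not apply to the TMM counts. In HSC/MPP 12 of 38 were higher and 0 lower, where 17.4% and 8.6% of all genes were, with a median log2 ratio of 0.40 (0.18 to 0.60), and with TMM scaling 5 were higher and 2 lower, with a median of 0.17. In B-cell progenitors 20 were higher and 1 lower, where 22.6% and 16.7% of all genes were, with a median of 0.60 (0.13 to 1.06), and with TMM scaling 9 and 3. The G2/M-high share of these cells was 79.7%, against 34.2% in control, and its part in these values was not tested. The change of scaling moved the median of all genes in HSC/MPP from 0.16 to -0.06. In granulocyte progenitors 9 were higher and 1 lower (21.9% and 12.3% of all genes), with TMM 4 and 4. In erythroid progenitors 8 were higher and 0 lower (16.5% and 4.76%), with TMM 4 and 2. In megakaryocytes 7 were higher and 0 lower (18.2% and 9.23%), with TMM 3 and 3. In neutrophils 6 were higher and 2 lower (11.8% and 9.47%), with TMM 4 and 3. Most Mll4-labelled neutrophils lay in clusters led by Wfdc21 and Retnlg and most control neutrophils in those led by Ltf and Fcnb. In monocyte/macrophage progenitors 5 were higher and 5 lower (24.5% and 7.37%), with TMM 1 and 9, and in basophil/mast cells 4 and 6 (25.1% and 10.9%), with TMM 1 and 9.

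Of the 64 other replication genes in the Mll4-labelled HSC/MPP class, 14 were at least 1.5-fold higher and 2 lower. The share of all genes that were higher in this class, given above, was near that of these 64. The 2 counts are without TMM scaling. The highest were Ccne2, from 15.5 CPM in control to 44, E2f3, from 32.4 to 78.4, and the exonuclease gene Exo1, from 25 to 50.3. The lowest were the small subunit genes Pold4, from 78.7 to 45 CPM, and Rpa3, from 101 to 67.2, and E2f5, from 5.8 to 3.52 on 10 counts in the Mll4-labelled library; Rpa3 was just short of 1.5-fold. More HSC/MPP cells were replication-high, with 72.8% (68.6% to 76.7%) against 58.6% in control and 56.8% for Mll3-labelled cells. Inside such cells, chosen by the other 37 members, the median log2 ratio was 0.22, with Rrm2 at 1.11 (0.68 to 1.57), Mcm5 at 1.07 (0.80 to 1.35), Mcm6 at 0.89 (0.68 to 1.10) and Dut at -0.47 (-0.67 to -0.27). The Mll4-labelled HSC/MPP cells had a median of 5433.5 UMIs against 13995 in control, and depth, the Xist level and the label cannot be told apart here.

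**Figure D5:**
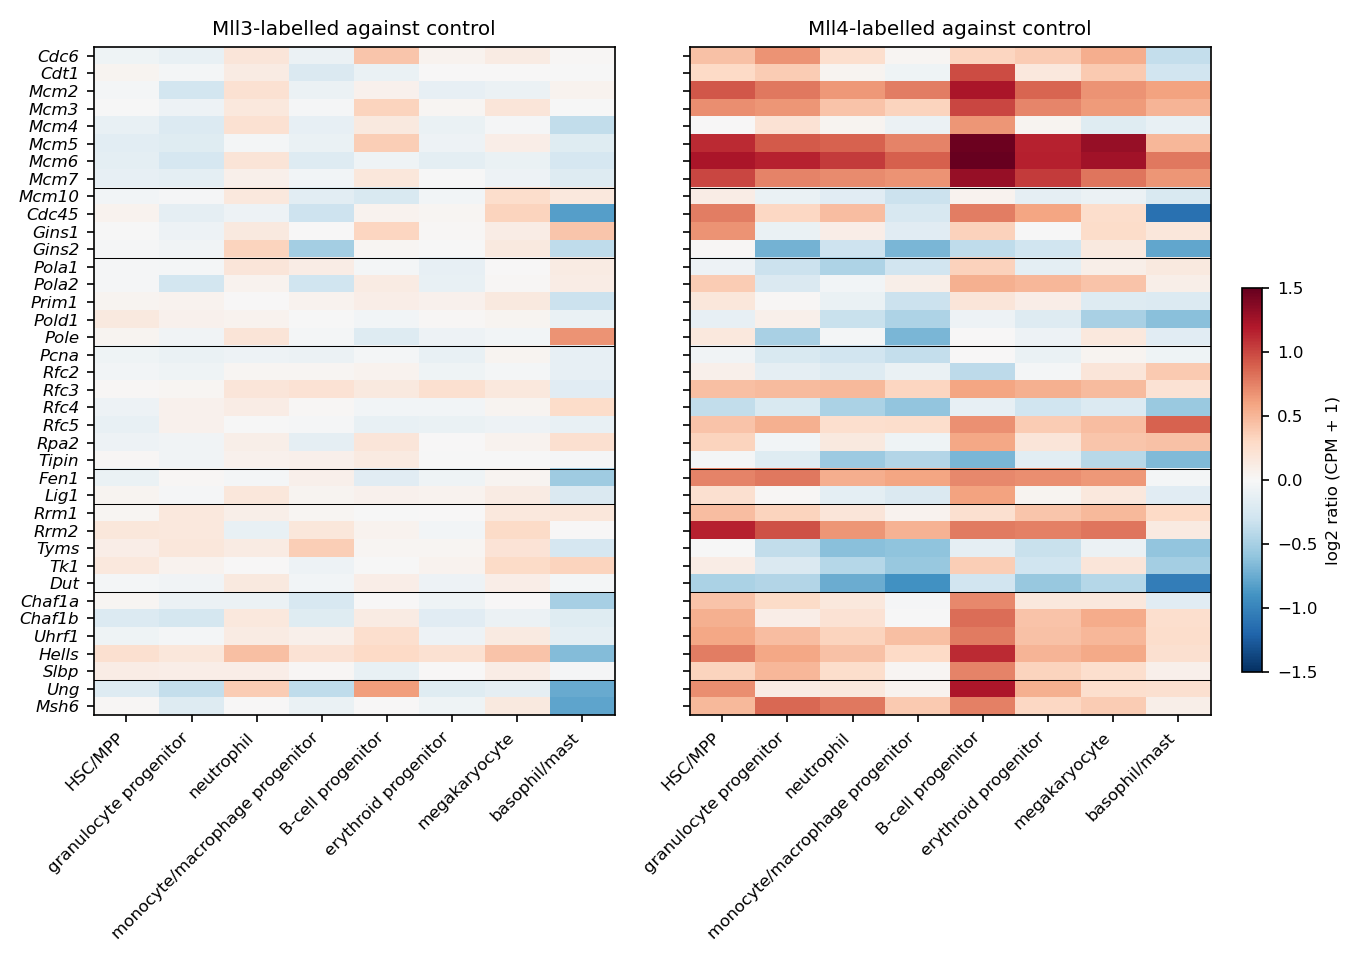
Log2 ratios to control of the 38 members (rows, grouped by role) in 8 classes (columns) for the Mll3-labelled and Mll4-labelled libraries, in colour from blue (lower) to red (higher). Rows Mcm2, Mcm3, Mcm5, Mcm6 and Mcm7 are red in every class of the Mll4-labelled panel, up to 1.495, and the Dut row is blue.

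Summed over whole classes, few members of the Mll3-labelled library were past 1.5-fold from control. No member was past 1.5-fold in HSC/MPP, where 1.71% of all genes were higher and 2.79% lower, or in granulocyte progenitors (1.27% and 3.23%), neutrophils (1.99% and 2.28%), monocyte/macrophage progenitors (2.17% and 3.67%), erythroid progenitors (0.719% and 2.63%) and megakaryocytes (2.11% and 4.33%). The median log2 ratios of the members ran from -0.12 in basophil/mast cells to 0.11 in neutrophils. Hells was higher in 7 of 8 classes, at 100 CPM in control and 119 in Mll3-labelled HSC/MPP cells, or 0.24 (0.15 to 0.33), and at 82.5 and 111 in megakaryocytes, or 0.43. It was lower in basophil/mast cells, at 79.6 and 50.5 CPM. Ung was lower in 6 of 8 classes and higher in B-cell progenitors, at 17.6 and 27.8 CPM, or 0.63 (0.15 to 1.18), the only member past 1.5-fold there, where 2.05% of all genes were higher and 8.39% lower. In the 80 Mll3-labelled basophil/mast cells 4 members were lower and 1 higher, where 8.97% and 3.25% of all genes were. These were Cdc45, Msh6, Ung and Hells, and Pole on 31 counts.

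Antibody counts for CD150 and CD48 split the HSC/MPP class without use of RNA. CD150+ CD48- cells are enriched for long-term stem cells, and CD150- CD48+ cells for multipotent progenitors. In control 36.4% (30.2% to 43.1%) of 225 CD150+ CD48- cells were replication-high, against 67.2% (64.2% to 70.2%) of 973 CD150- CD48+ cells. The shares were 37.1% and 70.4% in the Mll3-labelled library and 57.5% (45.9% to 68.5%) and 83.1% (78.2% to 87.3%) in the Mll4-labelled library. CD150- CD48- cells had 30.5% (23% to 38.8%) in control, the lowest share of the 4 gates, 40.7% in the Mll3-labelled and 55.7% in the Mll4-labelled library, and members made up 0.248% of their UMIs in control against 0.279% in CD150+ CD48- cells. The median log2 ratio of the members in CD150+ CD48- over CD150- CD48+ cells was -0.62 in control, -0.38 in the Mll3-labelled and -0.44 in the Mll4-labelled library. No such ratio was taken over all genes. Mcm6 was at 130 CPM in CD150+ CD48- cells of control, 147 in Mll3-labelled and 398 in Mll4-labelled cells. In CD150- CD48+ cells it was at 231, 215 and 561 CPM, so that for Mcm6 the Mll4-labelled CD150+ CD48- cells lay above the control CD150- CD48+ cells. For all members summed they did not, at 0.417% (0.397% to 0.438%) of UMIs against 0.422% (0.418% to 0.425%). Pcna was at 256, 281 and 258 CPM in CD150+ CD48- cells and 329, 311 and 328 in CD150- CD48+ cells, and within each gate its intervals overlapped between control and the Mll4-labelled library.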

How the data were processed

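RNA and antibody counts were measured in 1 library for each of 4 groups. The authors deposited unnormalized UMI counts per gene and cell barcode, made with Cell Ranger 6.1.2 against mm10 per the submitters' processing notes. Cells with at least 500 genes, at least 1000 UMIs and at most 10% mitochondrial UMIs were kept, and the barcodes with the highest Scrublet scores, 0.8% per 1000 barcodes, were removed as doublets. Cells were clustered together with scanpy 1.11.5 and leidenalg 0.10.2 at resolution 1, without the 38 members or other cell cycle genes, and clusters were named by marker genes. Classes had at least 50 cells. Counts were summed by class and library, scaled to CPM, and compared for genes with at least 20 counts in either library. Intervals are exact Poisson, conditional binomial or Clopper-Pearson at 95%, and the interval of a median is the median of the members' own limits. Erythroid progenitors include a cluster led by Apoe with none of its class markers among its 10 leading genes. The comparison was tested on simulated data of 32285 genes: for B-cell progenitors of the Mll3/4-labelled library 100% of raised and 95% of lowered genes were recovered. The changes put in were larger than the 1.5-fold limit and lay in genes with at least 20 expected counts. Only counting error was simulated, so differences between cells or between libraries of a group were not covered. CD150 and CD48 limits were 13.8 and 377 antibody counts. Named members were Mcm2 to Mcm7, Pcna, Rrm2 and the 4 highest and 4 lowest of a comparison. Members and lists were chosen with earlier results of these data known. Of the other replication genes the 3 highest and 3 lowest were named, except 1 that is not reported here.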

Additional observations from a re-analysis of the deposited data

Results flagged for a closer look

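The share of replication-high B-cell progenitors in the Mll3/4-labelled library had opposite directions against control by G2/M level, with a log2 ratio of 1.28 (0.91 to 1.65) in G2/M-low cells and -0.37 (-0.48 to -0.26) in G2/M-high cells. Ung in the Mll3-labelled library was higher than control in B-cell progenitors, at a log2 ratio of 0.63, and lower in basophil/mast cells, at -0.75. Cdc45 in the Mll4-labelled library was higher in HSC/MPP, at 0.77, in B-cell progenitors, at 0.77, and in erythroid progenitors, at 0.59, but lower in basophil/mast cells, at -1.12 on 10 counts. With 1 library a group, none of these differences between classes or levels was tested.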

How the results depend on the processing

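No paired analysis was possible because each group had 1 library. Of 341 recomputed medians and shares, 306 stayed within their own counting interval, 32 moved past it and 3 changed sign from a value whose interval left out 0. In all 32 changed sign, 29 of them from a value whose interval held 0, and the cause was not tested. For a median the interval is the median of the members' own limits, so staying within it does not measure how stable the median is. With TMM scaling the median log2 ratio of the members was 0.17 in HSC/MPP, -0.28 in monocyte/macrophage progenitors and -0.0094 in erythroid progenitors of the Mll4-labelled library, the last with a change of sign, and 0.027, also a change of sign, in erythroid progenitors of the Mll3-labelled library. At resolution 2 it was 0.13 in Mll4-labelled HSC/MPP. As the mean of CPM per cell it was -0.24 in Mll3/4-labelled B-cell progenitors. In their G2/M-low cells it was 0.49 with a limit of 10 G2/M UMIs, -0.61 with 30 and 0.29 as the mean of CPM per cell, the first and last with a change of sign.

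For the log2 ratio of the replication-high share to control, a limit of 3 UMIs gave 0.19 in HSC/MPP, -0.051 in monocyte/macrophage progenitors and 0.55 in B-cell progenitors of the Mll4-labelled library, 0.23 in Mll3-labelled and 0.043 in Mll3/4-labelled B-cell progenitors. A limit of 8 gave, in the Mll4-labelled library, 0.46 in HSC/MPP, 0.41 in granulocyte progenitors, 0.22 in neutrophils, 0.14 in erythroid progenitors and 0.27 in megakaryocytes. In the Mll3-labelled library it gave -0.11 in monocyte/macrophage progenitors, 0.19 in megakaryocytes and -0.49 in basophil/mast cells, the first and last with a change of sign. In Mll3/4-labelled B-cell progenitors it gave -0.044, a change of sign. Thinning to 4000 UMIs with a limit of 10 gave 0.60 in HSC/MPP, 0.31 in neutrophils, 0.49 in B-cell progenitors, 0.10 in erythroid progenitors and 0.86 in basophil/mast cells of the Mll4-labelled library, 0.094 in Mll3-labelled B-cell progenitors, and -0.41, a change of sign, in Mll3/4-labelled ones. Without thinning the Mll4-labelled B-cell progenitors were at 0.82. At resolution 2 Mll4-labelled HSC/MPP were at 0.16 and basophil/mast cells at 0.46. With all variable genes kept for clustering, Mll4-labelled HSC/MPP were at 0.42 and megakaryocytes at -0.064, a change of sign.

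Among named members 79 values changed sign, 8 of them from a value whose interval left out 0. These 8 follow. As the mean of CPM per cell, Dut was at 0.041 in Mll4-labelled and Mcm4 at 0.12 in Mll3/4-labelled B-cell progenitors, and Rrm2 at 0.051 in Mll3-labelled erythroid progenitors, where it was at 0.027 with TMM. At resolution 2 Mcm3 was at -0.040 in Mll3-labelled neutrophils, and Cdc45, Gins2 and Tipin were at 0.51, 0.023 and 0.023 in Mll4-labelled basophil/mast cells. At resolution 0.5 monocyte/macrophage progenitors and basophil/mast cells gave no value. Depth limits the Mll4-labelled library most, and no result has a replicate.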
